A study of Mus musculus with 6 samples.

Results

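The genes described here are those of sterol regulatory element binding protein (SREBP) driven synthesis of cholesterol and fatty acids. They were taken by symbol from the deposited expression table, and all 32 members were found among its 54532 genes. They fall into 4 branches: 5 genes of regulation and sterol transport, 7 of the route to farnesyl diphosphate, 11 of the route from there to cholesterol, and 9 of fatty acid synthesis and desaturation. Expression was measured by RNA-seq in mouse bone marrow-derived macrophages, which are grown in culture from marrow cells. All libraries came from cells brought to the inflammatory M1 state with LPS, a bacterial cell wall component, and IFN-γ, so the controls carry this treatment too. The 2 groups were labelled NSUN2-KO and NC, with 3 libraries each, given as biological replicates. The labels do not explain NC, and the allele, strain, sex and age of the mice are details that the sources used here leave out. The animal behind each library is left out too, so p-values measure the spread between these libraries.

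SREBP proteins are transcription factors made as precursors in the membrane of the endoplasmic reticulum. When membrane sterol is low, the escort protein SCAP carries them to the Golgi, where proteases release the active part. When sterol is plentiful, INSIG proteins hold SCAP back. SREBP2, encoded by Srebf2, mainly drives the sterol enzymes, and SREBP1, encoded by Srebf1, mainly drives the fatty acid enzymes. In macrophages activated through Toll-like receptors and interferon, both arms of lipid synthesis are known to be adjusted, in part by the oxysterol 25-hydroxycholesterol. NSUN2, the protein whose loss is under study, is an RNA cytosine methyltransferase.

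The libraries held 35019033 to 45636131 assigned reads. Nsun2 mRNA stood at 1.92 ± 0.105 FPKM (fragments per kilobase of gene length, scaled for library size) in NC and 1.06 ± 0.26 FPKM in NSUN2-KO (mean ± SD over 3 libraries per group, as throughout), which is 55.4% of the NC level and a change in limma (log2 fold change -0.51, adjusted p = 0.0228). All 8 macrophage markers and all 6 M1 markers that were looked up averaged at least 1 FPKM. Their summed level was 3930 to 4020 FPKM in NC against 3370 to 3410 FPKM in NSUN2-KO for the macrophage markers, and 3330 to 3390 against 3670 to 3880 FPKM for the M1 markers. The macrophage markers did not move together: Lyz2, the most abundant, went from 1740 ± 31.2 to 1160 ± 47.1 FPKM and was called lower with Cd68 and Fcgr1, Cd14 was called higher (206 ± 3.32 to 251 ± 1.87 FPKM), and the other 4 were not called. Of the 6 M1 markers 5 were called higher, and Cxcl9 was not called. The NSUN2-KO mean was 214% of the NC mean for Il6, 177% for Il12b and 124% for Tnf. It was 120% for Cxcl10, 116% for Nos2 and 96.6% for Cxcl9. Among markers of other cells, those of adipocytes, which make much fatty acid, summed to at most 0.036 FPKM, with Plin1, Cidec and Lep at 0 in every library. Of the 9 neutrophil markers 5 averaged at least 1 FPKM, and their list summed to 98.6 to 107 FPKM in the NC libraries and 79.7 to 83.5 FPKM in NSUN2-KO, with Elane at 0. Of those 5, S100a9, Csf3r and Mmp8 were called lower. The 6 dendritic cell markers summed to 5.27 to 6.39 and 8.56 to 9.71 FPKM, and the 5 stromal markers to 1.53 to 1.71 and 0.708 to 1.0 FPKM. Within the stromal list the mean of Col1a1 was 0.95 in NC and 0.279 FPKM in NSUN2-KO, that of Col1a2 0.415 and 0.154 FPKM, and that of Dcn 0.131 and 0.286 FPKM. The T and NK cell list and the B cell list reached at most 0.361 FPKM, with Cd3e at 0. Y-linked Ddx3y had 6.57 ± 0.433 FPKM in the NC libraries and 0 reads in each NSUN2-KO library, while X-linked Xist had 14.5 ± 0.881 and 30.6 ± 1.2 FPKM. Y-linked Eif2s3y, Uty and Kdm5d also had reads in every NC library and 0 in each NSUN2-KO library. Every NC library thus held Xist together with Y-linked reads, while the NSUN2-KO libraries held Xist and no reads of these Y-linked genes. Whether each NC library mixed male and female cells, or the NC libraries came from 1 pooled culture, was not tested. In the latter case they would not be independent replicates. The sex-linked difference runs with the groups, and its effects cannot be told apart from those of the genotype. All these differences in markers and sex-linked genes accompany the comparisons below, and their part in them was not tested.

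Most of the pathway did not pass the test. Of the 32 members, 19 averaged at least 1 FPKM and were tested. Mvd, which encodes mevalonate diphosphate decarboxylase, fell, and Cyp51, which encodes lanosterol 14-alpha-demethylase, rose, so that 1 member was higher and 1 lower in NSUN2-KO. The 2 called members are 10.5% of those tested, against 8.49% of all 9443 tested genes, 4.19% of which were higher and 4.30% lower. The members' share was thus near that of all genes. Calls were made with limma on log2(FPKM + 1) at an adjusted p below 0.05, and all log2 fold changes are NSUN2-KO minus NC on that scale unless stated. The median log2 fold change of the tested members was -0.03, with 8 positive and 11 negative values, beside -0.01 for all tested genes. Branch medians were -0.03 for regulation and sterol transport, -0.03 for the route to farnesyl diphosphate, 0.03 for the route to cholesterol and -0.14 for fatty acids. These medians rest on 4 to 7 genes each, and each changed sign under at least 1 alternative. That for fatty acids was -0.08 without NC replicate 1 and -0.04 when low genes were kept. Its only change of sign, to 0.01, came at a mean of at least 5 FPKM, where Acly alone was left in the branch. The values of the groups did not overlap for 6 of the 19 tested members, or 31.6%, beside 31.1% of all tested genes. In such bulk libraries fewer expressing cells and less RNA per cell cannot be told apart.

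**Figure D1:**
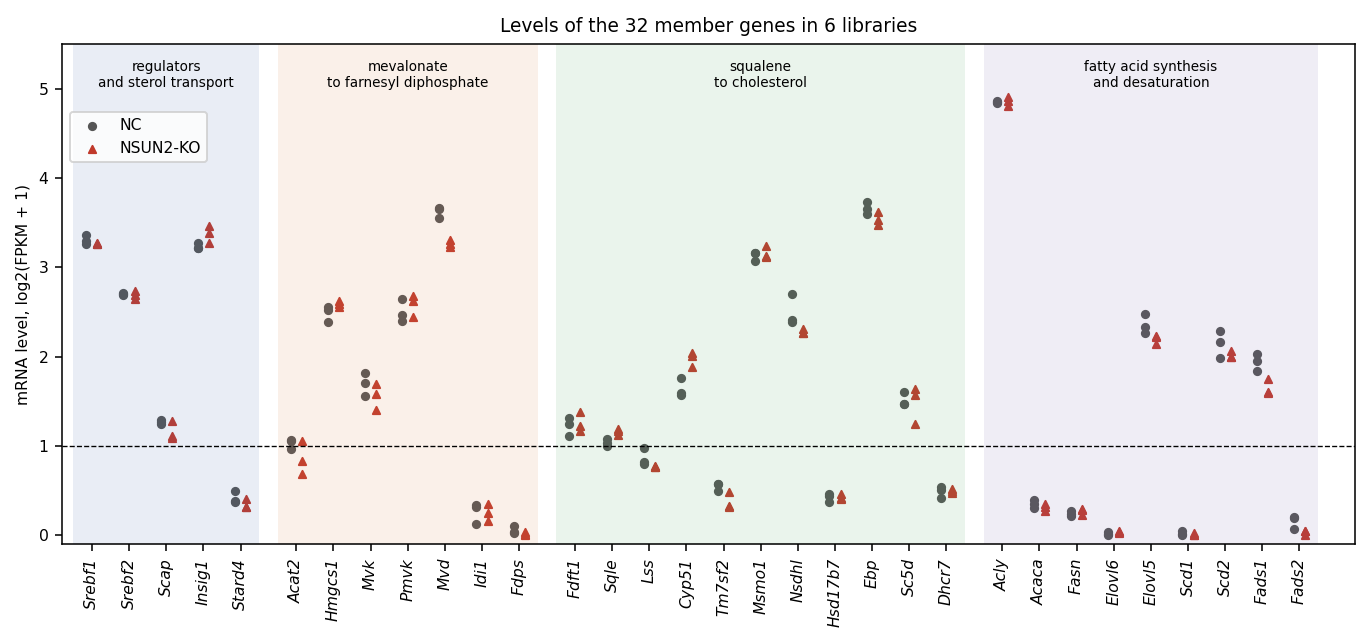
mRNA level of each of the 32 members on the log2(FPKM + 1) scale, by branch, with circles for the 3 NC libraries and triangles for the 3 NSUN2-KO libraries. The dashed line marks 1 FPKM. Acly stands highest, and 13 members average below 1 FPKM. The groups lie apart for Mvd and Cyp51, which were called, and also for Sqle, Nsdhl, Elovl5, Fads1, Lss, Tm7sf2 and Fads2.

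Mvd and Cyp51 are shown by their promoters, since they act in 1 pathway and moved in opposite directions. With them stand Hmgcs1, an early enzyme of the mevalonate route, and Insig1, a regulator of SREBP export, neither of which was called. Each sequence runs from 250 bases before to 50 bases after the RefSeq start on the gene's own strand (GRCm38.p6). The capitals mark matches on either strand to TCACNCCAC, a core form of the sterol response element, to CCAAT, the box bound by NF-Y, and to GGGCGG, the GC box bound by Sp1. NF-Y and Sp1 are known partners of SREBP at its targets. The regions are chr8:122443373-122443672 (minus strand) for Mvd, chr5:4104648-4104947 (minus strand) for Cyp51, chr13:119690101-119690400 (plus strand) for Hmgcs1 and chr5:28071162-28071461 (plus strand) for Insig1.
Mvd: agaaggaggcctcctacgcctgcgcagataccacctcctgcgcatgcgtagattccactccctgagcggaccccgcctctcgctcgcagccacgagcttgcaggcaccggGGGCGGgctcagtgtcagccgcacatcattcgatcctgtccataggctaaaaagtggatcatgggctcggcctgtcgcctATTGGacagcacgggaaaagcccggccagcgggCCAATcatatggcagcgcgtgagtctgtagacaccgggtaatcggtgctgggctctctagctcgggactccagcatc
Cyp51: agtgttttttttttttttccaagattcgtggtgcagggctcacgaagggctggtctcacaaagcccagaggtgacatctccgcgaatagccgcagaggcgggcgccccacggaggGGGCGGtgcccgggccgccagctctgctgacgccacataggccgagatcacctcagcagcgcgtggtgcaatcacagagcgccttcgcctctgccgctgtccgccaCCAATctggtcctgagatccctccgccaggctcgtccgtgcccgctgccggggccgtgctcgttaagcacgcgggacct
Hmgcs1: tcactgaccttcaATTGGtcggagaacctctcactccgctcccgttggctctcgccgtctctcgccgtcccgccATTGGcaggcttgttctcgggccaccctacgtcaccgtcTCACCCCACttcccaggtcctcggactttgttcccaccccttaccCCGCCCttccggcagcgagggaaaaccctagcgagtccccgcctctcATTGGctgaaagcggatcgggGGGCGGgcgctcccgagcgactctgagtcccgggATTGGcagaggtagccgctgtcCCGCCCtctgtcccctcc
Insig1: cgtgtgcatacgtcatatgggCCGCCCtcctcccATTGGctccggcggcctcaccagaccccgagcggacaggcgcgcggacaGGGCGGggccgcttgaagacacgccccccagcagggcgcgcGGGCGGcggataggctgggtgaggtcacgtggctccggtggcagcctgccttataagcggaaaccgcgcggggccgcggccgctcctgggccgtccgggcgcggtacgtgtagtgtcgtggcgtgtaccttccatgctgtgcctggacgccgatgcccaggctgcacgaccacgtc

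RefSeq promoters were matched by symbol for 25 of the 32 members. A CCAAT box occurred in a promoter of 20 of these 25 genes, whereas 41.1% of all 27025 genes in the promoter table held one. The GC box occurred in 20 of the 25, against 38.2% of all genes. All genes here are those of the promoter table, whether expressed in these cells or not. No set matched for expression was compared, so these shares cannot be read as particular to the members. The sterol response element core occurred in 1 of the 25, Hmgcs1, where its first base lies at -137 relative to the start site, against 1.44% of all genes. Bases shortly after the start were found in an annotated transcript of the gene for 27 of the members' 31 promoters. These include the ones shown for Mvd, Cyp51 and Insig1 but not that of Hmgcs1. The bases could lie anywhere in the transcript, so this check bears on gene and strand and does not place the start. Starts and positions are therefore uncertain, those of Hmgcs1 above all. No matches of different motifs overlapped in the members' promoters. Mvd held 2 CCAAT boxes and 1 GC box, and Cyp51 held 1 of each. For the strings searched, the promoters of the member that fell and the member that rose therefore held the same kinds of match. Other forms of the sterol response element were not searched, so these promoters may hold them. A match is a run of letters and does not show binding.

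No regulator of the pathway was called. Srebf1 measured 8.6, 8.81 and 9.31 FPKM in the NC libraries and 8.59, 8.57 and 8.67 FPKM in NSUN2-KO, in the order of replicates 1 to 3, which is kept for the other genes. The lowest NC library lay within the NSUN2-KO range, and the log2 fold change was -0.04 (95% interval -0.15 to 0.06, limma adjusted p = 0.591). Srebf2 measured 5.52, 5.46 and 5.55 FPKM in the NC libraries and 5.66, 5.44 and 5.25 FPKM in NSUN2-KO. The NSUN2-KO libraries lay on both sides of the NC values, with a log2 fold change of -0.01 (95% interval -0.12 to 0.10, limma adjusted p = 0.893). Both signs turned positive, at 0.04 each, once a fitted dependence on GC content and length had been subtracted from each library. Scap, the escort of SREBP, measured 1.41, 1.45 and 1.37 FPKM in the NC libraries and 1.13, 1.16 and 1.42 FPKM in NSUN2-KO. NSUN2-KO replicate 3 stood at the NC level and the other two below it (log2 fold change -0.11, 95% interval -0.29 to 0.07, limma adjusted p = 0.437). Insig1, itself a sensitive SREBP target, measured 8.65, 8.32 and 8.3 FPKM in the NC libraries and 8.62, 10.0 and 9.43 FPKM in NSUN2-KO. NSUN2-KO replicate 1 lay within the NC range and the other two above it (log2 fold change 0.14, 95% interval 0.00 to 0.27, limma adjusted p = 0.19). Stard4, a sterol carrier of the cytosol, averaged 0.339 ± 0.0639 FPKM in the NC libraries and 0.273 ± 0.0463 FPKM in NSUN2-KO on 52 to 89 reads per library and was not tested.

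On the route from acetyl-CoA to farnesyl diphosphate, Mvd was the member that changed. Mvd (ENSMUSG00000006517, GRCm38 chromosome 8, positions 122433601 to 122443422, minus strand) makes isopentenyl diphosphate, the building block of isoprenoids. It measured 10.7, 11.7 and 11.6 FPKM in the NC libraries and 8.57, 8.39 and 8.86 FPKM in NSUN2-KO. All 3 NSUN2-KO libraries lay below all 3 NC libraries, on 547 to 996 reads each, and Mvd shares no exon bases with another annotated gene. The NSUN2-KO mean was 75.9% of the NC mean, and the log2 fold change was -0.36 (SE 0.05, 95% interval -0.47 to -0.25, limma adjusted p = 0.00531). The neighbouring steps upstream did not pass the test. Hmgcs1, which makes HMG-CoA, averaged 4.62 ± 0.349 FPKM in the NC libraries and 5.03 ± 0.154 FPKM in NSUN2-KO (log2 fold change 0.10, 95% interval -0.04 to 0.24). Mvk, which phosphorylates mevalonate, averaged 2.25 ± 0.288 and 1.96 ± 0.302 FPKM (log2 fold change -0.13, 95% interval -0.36 to 0.10). Pmvk, the next kinase of the route, averaged 4.69 ± 0.522 and 5.01 ± 0.492 FPKM (log2 fold change 0.08, 95% interval -0.12 to 0.28).

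The other enzymes of this route stood too low to be tested. Acat2, which joins acetyl-CoA units, averaged 1.04 ± 0.0791 FPKM in the NC libraries and 0.823 ± 0.238 FPKM in NSUN2-KO, with NSUN2-KO replicate 3 at the NC level. Idi1, the isomerase after Mvd, averaged 0.198 ± 0.0952 and 0.194 ± 0.0766 FPKM on 12 to 39 reads per library. Fdps, which makes farnesyl diphosphate, had 12, 3 and 4 reads in NC and 4, 2 and 0 reads in NSUN2-KO. In the GENCODE vM21 annotation of the same build, 26.7% of the exon bases of Fdps also belong to Gm43738 on the same strand. The sources used here do not say how counting treated shared bases, so the level of Fdps is uncertain.

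**Figure D2:**
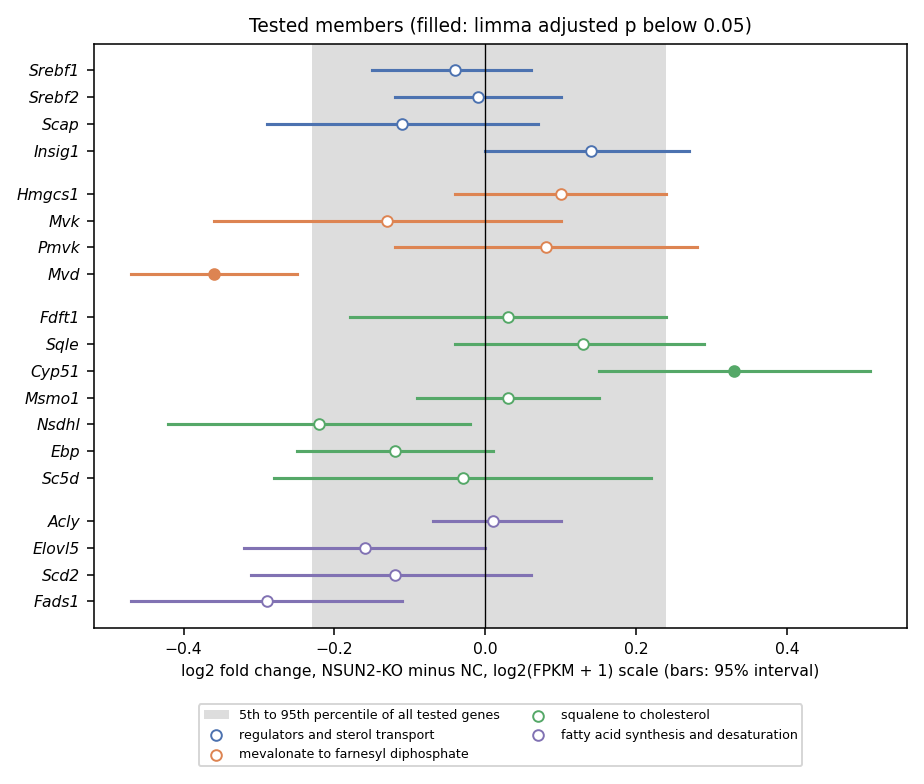
Log2 fold change of the 19 tested members, NSUN2-KO minus NC on the log2(FPKM + 1) scale, with 95% intervals and filled points for an adjusted p below 0.05. Grey marks the 5th to 95th percentile of all tested genes, -0.23 to 0.24. Mvd and Fads1 lie left of it and Cyp51 lies right of it, and Fads1 was not called.

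On the route from farnesyl diphosphate to cholesterol, Cyp51 was the member that changed. Cyp51 (ENSMUSG00000001467, GRCm38 chromosome 5, positions 4081145 to 4104746, minus strand) removes a methyl group from lanosterol, the first sterol of the pathway. It measured 2.02, 1.98 and 2.39 FPKM in the NC libraries and 3.02, 3.11 and 2.69 FPKM in NSUN2-KO. All 3 NSUN2-KO libraries lay above all 3 NC libraries, on 344 to 535 reads each. The NSUN2-KO mean was 138% of the NC mean, and the log2 fold change was 0.33 (SE 0.08, 95% interval 0.15 to 0.51, limma adjusted p = 0.0391). The call was near the threshold: of the 6 fits without 1 library it held in 1 (adjusted p = 0.048 without NSUN2-KO replicate 3), and the others gave 0.0508 to 0.126. Without NC replicate 1, 2 or 3 the adjusted p was 0.0923, 0.126 or 0.0508, and without NSUN2-KO replicate 1 or 2 it was 0.123 or 0.105. Over all genes these fits also gave fewer calls, 153 to 313 higher and 123 to 283 lower against 396 and 406. Limma voom called Cyp51 (log2 fold change of reads 0.47, adjusted p = 0.00503), as did limma on protein-coding genes alone (adjusted p = 0.016). These alternatives called 14.5% and 12.0% of their tested genes. The replicate block and the fit with no filter on low values did not call Cyp51 (adjusted p = 0.106 and 0.144). On the opposite strand Akap9 shares 3.76% of the exon bases of Cyp51, and Akap9 averaged 1.83 ± 0.0888 FPKM in the NC libraries and 2.27 ± 0.11 FPKM in NSUN2-KO (log2 fold change 0.21, adjusted p = 0.0923). The part of these shared bases in the Cyp51 value was not tested.

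The 6 other tested enzymes of the sterol branch did not pass the test. Sqle, the epoxidase that is a control point of the pathway, averaged 1.05 ± 0.052 FPKM in the NC libraries and 1.24 ± 0.055 FPKM in NSUN2-KO. Its groups did not overlap, but its log2 fold change of 0.13 had a 95% interval of -0.04 to 0.29. Msmo1, which acts after Cyp51 on the methylated sterols, averaged 7.76 ± 0.291 and 7.93 ± 0.421 FPKM (log2 fold change 0.03). Nsdhl, a dehydrogenase that works with Msmo1, measured 4.22, 4.32 and 5.51 FPKM in the NC libraries and 3.81, 3.96 and 3.81 FPKM in NSUN2-KO. The groups lay apart, and NC replicate 3 stood above the other NC libraries (log2 fold change -0.22, 95% interval -0.42 to -0.02, limma adjusted p = 0.165). Ebp, the sterol isomerase, averaged 11.7 ± 0.585 and 10.6 ± 0.603 FPKM (log2 fold change -0.12, adjusted p = 0.216). Nsdhl and Ebp are the 2 members on the X chromosome, and the part of the sex-linked difference in their values was not tested. Sc5d, the desaturase near the end of the route, averaged 1.86 ± 0.155 and 1.82 ± 0.385 FPKM (log2 fold change -0.03). Fdft1, squalene synthase, averaged 1.34 ± 0.17 and 1.4 ± 0.179 FPKM (log2 fold change 0.03). Its exons share 18.3% of their bases with Ctsb on the opposite strand, a gene at 1630 ± 12.3 FPKM in the NC libraries and 1380 ± 27.1 FPKM in NSUN2-KO, so the level of Fdft1 is uncertain where counting did not use strand.

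The remaining sterol enzymes were below 1 FPKM on average. Lss, which closes the sterol rings, averaged 0.821 ± 0.124 FPKM in the NC libraries and 0.704 ± 0.00837 FPKM in NSUN2-KO. Tm7sf2, a sterol reductase, averaged 0.464 ± 0.0494 and 0.301 ± 0.0882 FPKM, with every NSUN2-KO library below every NC library. In the GENCODE vM21 annotation 12.1% of its 4403 exon bases also belong to Vps51 on the same strand. The deposited length of Tm7sf2 is 5593 bases, so the overlap in the gene model that was counted may differ. Deposited and annotated lengths were equal for 27 of the 32 members. Dhcr7, which makes cholesterol in the last step of 1 arm of the pathway, averaged 0.403 ± 0.0617 and 0.41 ± 0.0186 FPKM, and Hsd17b7, a keto-reductase, 0.343 ± 0.0425 and 0.348 ± 0.0292 FPKM.

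**Figure D3:**
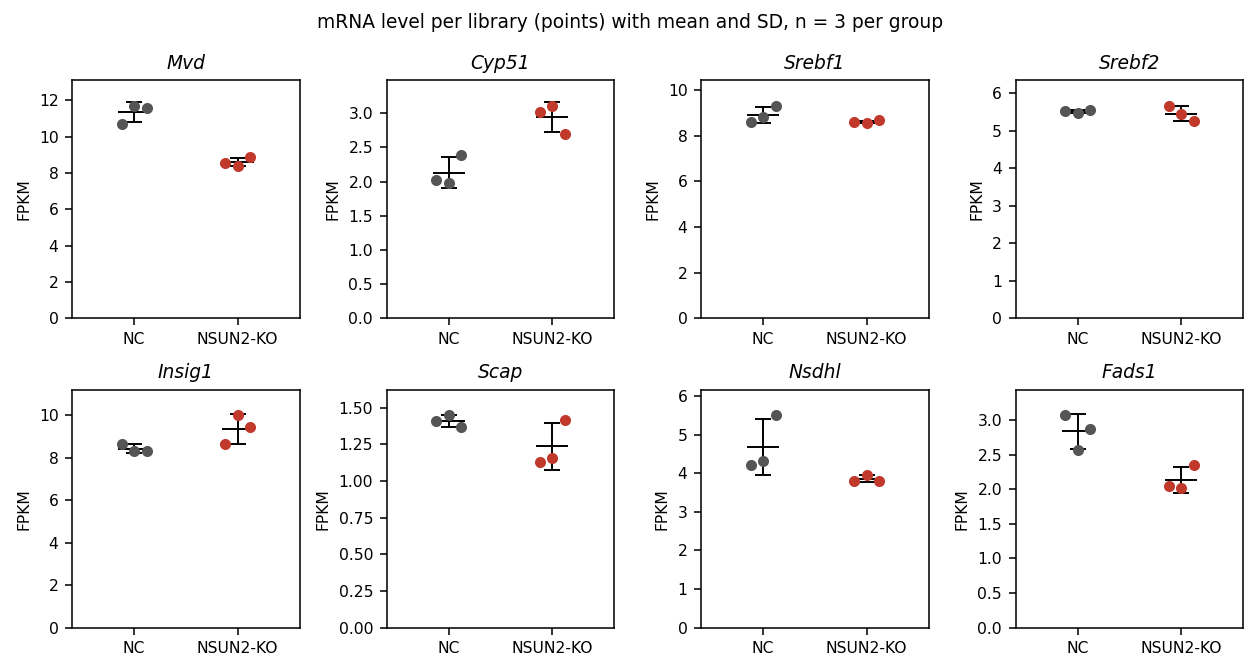
FPKM of 8 members in each of the 6 libraries (points) with the mean and SD of each group (n = 3). The groups lie apart for Mvd, Cyp51, Nsdhl and Fads1 and overlap for Srebf1, Srebf2, Insig1 and Scap. Mvd and Cyp51 were called.

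In the fatty acid branch no tested member was called. Acly, which splits citrate into cytosolic acetyl-CoA for both sterols and fatty acids, was the most abundant member at 27.7 ± 0.27 FPKM in the NC libraries and 28.0 ± 0.967 FPKM in NSUN2-KO (log2 fold change 0.01, 95% interval -0.07 to 0.10). Fads1, the delta-5 desaturase of polyunsaturated fatty acids, measured 3.07, 2.57 and 2.87 FPKM in the NC libraries and 2.04, 2.02 and 2.35 FPKM in NSUN2-KO. Every NSUN2-KO library lay below every NC library, with a mean of 75.3% of NC. Its log2 fold change was -0.29 (95% interval -0.47 to -0.11), and the limma adjusted p of 0.0559 missed the threshold. It was called with limma voom on the reads recovered from the table (log2 fold change of reads -0.40, adjusted p = 0.0311), where 14.5% of all tested genes were called. It was also called when protein-coding genes alone were tested (adjusted p = 0.0269), where 12.0% of them were. Elovl5, an elongase of polyunsaturated chains, averaged 4.13 ± 0.385 and 3.59 ± 0.153 FPKM (log2 fold change -0.16, adjusted p = 0.189), with groups that did not overlap. Scd2, a stearoyl-CoA desaturase, averaged 3.44 ± 0.448 and 3.06 ± 0.11 FPKM (log2 fold change -0.12, adjusted p = 0.384).

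The core enzymes that build fatty acid chains were near the lower end of the module. Acaca, which makes malonyl-CoA, averaged 0.28 ± 0.0396 FPKM in the NC libraries and 0.244 ± 0.0313 FPKM in NSUN2-KO, and Fasn, the synthase itself, 0.184 ± 0.0236 and 0.206 ± 0.0319 FPKM. Scd1, the better known of the desaturases in liver, had 0 to 6 reads per library, and Elovl6, which lengthens palmitate, had 0 to 8. On the FPKM scale, which is per gene length, the NC mean of Scd2 was thus 3.44 against 0.0136 for Scd1. Fads2, the delta-6 desaturase that acts before Fads1, had 3, 10 and 9 reads in NC and 2, 0 and 2 reads in NSUN2-KO. Reads are few here, and a count of 0 still allows up to 3 reads by counting error alone. With no filter on low values, none of the 13 members below 1 FPKM was called, the lowest limma adjusted p being 0.26, for Fads2; in that fit Mvd was the 1 member called.

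Of the 17 tested members that were not called, 14 had a 95% interval within 1.25-fold either way on the log2(FPKM + 1) scale. That scale understates the change of low genes, and on the scale of recovered reads with limma voom 7 of the 17 had such an interval. A change of that size is thus not shown to be absent for the others. Fold changes over all tested genes also went with base composition, with a Spearman correlation of -0.385 between log2 fold change and GC content of the transcripts, which share the same 6 libraries. Transcripts of Mvd had 59.2% GC and those of Cyp51 had 46.3%. After this dependence and that on length had been subtracted from each library, Mvd had a log2 fold change of -0.29 (limma adjusted p = 0.00408) and Cyp51 one of 0.31 (adjusted p = 0.0406).

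Other genes of the pathway were read from lists. Of 21 further targets and enzymes 15 were tested, 1 was higher and 0 were lower, with a median log2 fold change of -0.00. The share called was 6.67%, beside 8.49% of all tested genes. The gene that rose was Me1, malic enzyme, which supplies NADPH for lipid synthesis. It measured 3.72, 2.85 and 3.39 FPKM in the NC libraries and 4.68, 4.96 and 4.47 FPKM in NSUN2-KO, without overlap (log2 fold change 0.40, 95% interval 0.21 to 0.59, limma adjusted p = 0.0249). Me1 held its call in 2 of the 6 fits without 1 library, with an adjusted p of 0.022 when NC replicate 1 was left out and 0.0464 when NSUN2-KO replicate 3 was, and the others gave 0.058 to 0.0804.

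None of 11 genes listed for SREBP processing and for protein turnover in the pathway was called by limma, beside 8.49% of all tested genes. An unadjusted limma p below 0.05 was seen for 2, Mylip and Fbxw7, where 25.5% of all tested genes had one. By limma voom their adjusted p was 0.21 and 0.0567. Mbtps1 and Mbtps2, the proteases that release SREBP, averaged 2.46 ± 0.113 and 1.82 ± 0.0327 FPKM in the NC libraries and 2.32 ± 0.166 and 1.89 ± 0.0615 FPKM in NSUN2-KO. Insig2, the second INSIG gene, averaged 12.5 ± 0.572 and 12.9 ± 0.297 FPKM (log2 fold change 0.03).

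Among 8 genes of oxysterols and the sterol receptor LXR, 6 were tested, 1 rose and 1 fell. These calls are 33.3% of the tested genes of the list, beside 8.49% of all tested genes. The list was chosen with earlier results of these data known. Ch25h makes 25-hydroxycholesterol, an oxysterol known to bind INSIG and hold back SREBP. It measured 11.5, 11.2 and 10.9 FPKM in the NC libraries and 18.5, 18.1 and 17.3 FPKM in NSUN2-KO. Every NSUN2-KO library lay far above the NC range, at 160% of the NC mean (log2 fold change 0.63, SE 0.04, 95% interval 0.53 to 0.73, limma adjusted p = 0.000416). Rxra, the partner receptor of LXR, measured 9.34, 10.7 and 9.9 FPKM in the NC libraries and 8.05, 8.2 and 8.37 FPKM in NSUN2-KO (log2 fold change -0.25, 95% interval -0.37 to -0.13, limma adjusted p = 0.029). Rxra held its call in 1 of the 6 fits without 1 library, that without NC replicate 1 (adjusted p = 0.0262), and the others gave 0.0561 to 0.101. The LXR genes Nr1h2 and Nr1h3 averaged 35.5 ± 1.88 and 8.31 ± 0.634 FPKM in the NC libraries and 33.5 ± 1.46 and 7.55 ± 1.33 FPKM in NSUN2-KO, with adjusted p of 0.376 and 0.508.

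**Figure D4:**
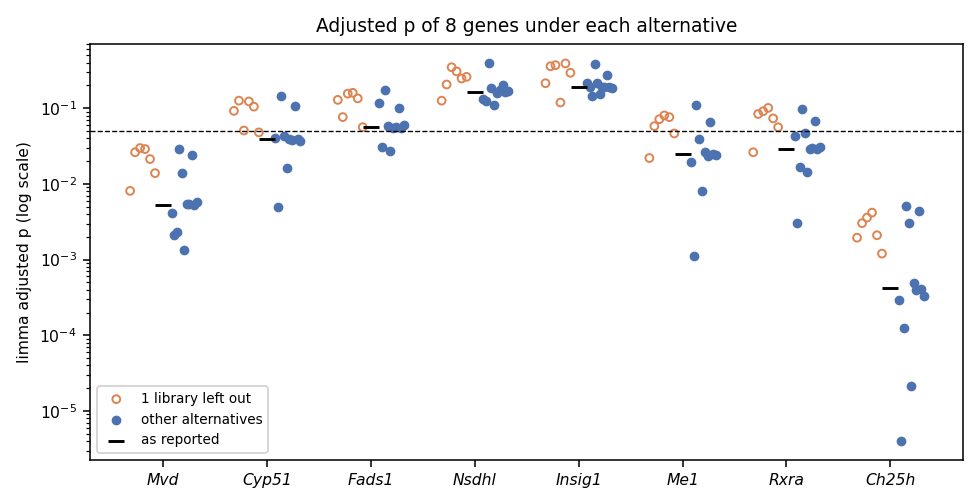
Limma adjusted p (log scale) of 8 genes as reported (bars), in the 6 fits without 1 library (open circles) and under the other alternatives (filled circles). The dashed line is 0.05. All points of Mvd and Ch25h lie below it, while Cyp51, Me1 and Rxra have points on both sides.

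Mvd held its call in all 17 alternatives, with a log2 fold change of -0.40 to -0.26 and a limma adjusted p of 0.00136 to 0.0298. Ch25h held its call in all 17 as well (log2 fold change 0.50 to 0.68). Cyp51 could be tested in 16 of them and held its call in 9. Among the alternatives, rescaling by median ratios divided every library by the same factor, 1.004, so it could hardly change a call.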

How the data were processed

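The data are 1 table of FPKM values deposited by the authors, with the gene length in bases used for them. Per the submitters' processing notes the build was GRCm38 (mm10) and the tools included DESeq2 1.20.0, featureCounts 1.5.0-p3, HISAT2 2.0.5, fastp and CASAVA 1.8; the sources used here leave out their settings and strand use. Columns were matched to samples by group and replicate number, leaving 0 columns of unassigned samples. The series' text names 3 replicates per group and elsewhere fewer; 3 columns per group were found.

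FPKM times gene length gave whole multiples of a step for 100% of values (tolerance 0.01 reads), so reads were recovered. Median ratios of the deposited values equalled 1.004 in all 6 libraries, so the libraries share a median-ratio scale. limma 3.58.1 in R 4.3.3 then tested genes averaging at least 1 FPKM, two-sided, on the log2(FPKM + 1) scale, with a mean-variance trend and Benjamini-Hochberg adjustment over all tested genes. Members and lists were chosen with earlier results of these data known. All members are named; values per library were given for called members, Srebf1, Srebf2, Scap and Insig1, and for pathway genes that were called, among them Ch25h; some genes of that rule are not reported here. Values per library of Nsdhl, Fads1, Fdps and Fads2, and pathway genes outside this rule, were added after their values were seen. Motifs were searched in RefSeq promoters. The test was checked on simulated data. Alternatives were pseudocounts, filters, no trend, rescaling, limma voom on recovered reads, a replicate block, protein-coding genes, and leaving out each library; the GC content and gene length adjustment (loess, span 0.5) and scaling to total reads were chosen after seeing the data. Python 3.11.15, pandas 2.3.3 and matplotlib 3.10.9 were used.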

Additional observations from a re-analysis of the deposited data

How the results depend on the processing

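Over all genes, 396 were called higher and 406 lower. The counts were 706 and 666 with limma voom, 147 and 118 without a filter on low genes, 190 and 161 with the replicate block, and 272 and 254 without the mean-variance trend. Leaving out 1 library gave 153 to 313 higher and 123 to 283 lower. Members called higher, which is Cyp51 of the route to cholesterol, numbered 0 with no filter (adjusted p = 0.144), with the replicate block (adjusted p = 0.106) and at a mean of at least 5 FPKM, where Cyp51 was not tested, and 0 to 1 without 1 library. Members called lower numbered 2, with 1 in the fatty acid branch (Fads1), under limma voom or among protein-coding genes only. No pairing by replicate number was seen: same-numbered deviations correlated at -0.00952, -0.0298 and 0.00343. With 3 libraries per group this cannot exclude that same-numbered libraries were handled together. The replicate block also ended the limma calls of Me1 (adjusted p = 0.0661) and Rxra (adjusted p = 0.0676), though not those of Mvd and Ch25h. Me1 and Rxra also lost their calls with no filter (adjusted p = 0.111 and 0.0968). Reversed signs occurred only in genes that were not called. They were 0.04 for Srebf1, 0.04 for Srebf2 and -0.02 for Msmo1 after adjustment for GC content and length. Leaving out 1 library gave -0.04 to 0.01 for Srebf2, -0.03 to 0.08 for Fdft1, -0.10 to 0.09 for Sc5d, -0.01 to 0.05 for Msmo1 and -0.01 to 0.04 for Acly. Scaling to total reads changed no call of a member. Rescaling by median ratios changed none either, but it divided every library by the same factor, 1.004, and could hardly do so. The cause of the other changes was not tested. The filter at 1 FPKM, which is per gene length, left out 13 members with 0 to 476 reads per library, among them Lss with 266 to 476. Over all alternatives the median log2 fold change ranged from -0.05 to -0.01 for the tested members, -0.04 to 0.04 for regulation and sterol transport, -0.36 to 0.02 for the route to farnesyl diphosphate, -0.05 to 0.08 for the route to cholesterol and -0.20 to 0.01 for fatty acids. The -0.36 and the 0.01 for fatty acids came at a mean of at least 5 FPKM. There Mvd alone and Acly alone were left in these branches.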
